A study of Mus musculus with 31 samples.

Results

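Wild-type yolk sacs (Etv2 +/+) were compared with yolk sacs of Etv2 enhΔ/Δ compound heterozygotes, which carry an enhancer-deleted allele (enhΔ) over a null allele (Δ). Members were taken by the genotype label, which gave 5 enhΔ/Δ and 6 +/+ libraries, 11 of the 31 libraries of an Etv2 allelic series with 6 genotypes. All libraries were bulk RNA-seq of single yolk sacs at embryonic day 8.5 (E8.5), matched by somite stage, from mice of mixed background. The enhΔ allele lacks a stretch upstream of Etv2 that was cut out with CRISPR-Cas9 in FVB zygotes, and 2 founder lines were kept. The Δ allele lacks exons 4 and 5 in the numbering of the study and was made by crossing floxed Etv2 mice to Mef2c-AHF-Cre mice, which removed the exons from the germline. No +/+ yolk sac carries either allele, and no agent was given to any group. Of the enhΔ/Δ yolk sacs 3 were labelled female and 2 male, and of the +/+ yolk sacs 5 female and 1 male. The labels name the tissue as yolk sac, although the source name of the same libraries reads as embryo.

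Etv2 is an ETS-family transcription factor that mesodermal progenitors switch on briefly before they become endothelium or blood. In the yolk sac, those progenitors form blood islands, where primitive erythroid cells arise beside endothelial cells, surrounded by mesoderm and covered on the outside by the visceral endoderm, an absorptive and secretory epithelium. Tal1, a basic helix-loop-helix factor, and Gata1, a zinc finger factor that binds GATA motifs, sit together at erythroid genes and are each required for primitive red cells. The comparison asks which genes of the yolk sac differ when 1 Etv2 allele is null and the other lacks its upstream enhancer. In bulk tissue, fewer cells of a type and less RNA per cell cannot be told apart.

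Both alleles are defined by their genotyping primers, which are shown because they place the deletions at the gene. In mouse genome build mm9, Etv2 lies on the minus strand of chromosome 7, and its annotated transcript has 7 exons. Primers LBL-F and LBL-R flank the enhancer deletion, and EED-WTF2 lies inside it.
LBL-F, chr7:31423209-31423228, plus strand: gcctcttctcccaccacata
EED-WTF2, chr7:31424730-31424748, plus strand: gtggaacccttcccagttc
LBL-R, chr7:31425346-31425365, minus strand: ttggcactagaatgcacagc
The wild-type stretch between the flanking primers is 2157 bp long, and its nearer end is 2043 bases upstream of the annotated start of Etv2. Primers Etv2-I3F and Etv2-I5R flank the exons removed in Δ, and Etv2-E4R3 lies in between.
Etv2-I3F, chr7:31420257-31420279, minus strand: cacactagagctgagttcagacc
Etv2-E4R3, chr7:31419662-31419684, plus strand: atgtggctctatcagactgcttg
Etv2-I5R, chr7:31418879-31418897, plus strand: ggaccagggtcttagctgc
The wild-type stretch between I3F and I5R is 1401 bp long and spans exons 5 and 6 of the 7-exon transcript. Neither deletion removes the start of the gene or its last exon.

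Expression is given in CPM, the reads of a gene scaled to the reads counted in genes of that library and to the authors' normalization factors. The 11 libraries held between 5718619 and 16924853 reads in genes, so that 1 read was worth 0.0565 to 0.181 CPM. Labelled sex matched Xist and Y-linked genes in all 11 libraries. In the rest of the series, which also entered the fit, the sex label went against those genes in 2 Etv2 +/Δ and 2 Δ/Δ libraries, and results were also computed without those 4. The share of reads from mitochondrial genes was 8.58% ± 1.13 (SD, n = 5) in enhΔ/Δ and 12.2% ± 2.83 (SD, n = 6) in +/+ (exact permutation test, two-sided, p = 0.0173, adjusted p = 0.0346 over 4 library measures). Reads per library did not pass the same exact test (p = 0.286, adjusted p = 0.381). The first principal component, with 18.9% of the variance, separated the groups without overlap (exact permutation test, p = 0.00433, the smallest that 462 regroupings allow, adjusted p = 0.0173). Reads of the ferritin pseudogene Ftl2-ps split the +/+ libraries: 5 of 6 had 36.5 to 45.5 CPM, whereas +/+ replicate 1 had 0.180 CPM and all 5 enhΔ/Δ libraries had 0 to 0.515 CPM. The Ftl2-ps split and the genotype therefore coincide in 10 of the 11 libraries, and the counts of called genes, the named genes and the list medians were also computed with that split as a term. Replicate 3 of enhΔ/Δ stood nearer to +/+ than the other 4 enhΔ/Δ libraries for many red cell genes. Defining markers of the yolk sac were present, with a summed visceral endoderm level (Afp, Ttr, Apoa1, Apob, Cubn, Amn) of 36330 to 45100 CPM in +/+ and 38810 to 50510 CPM in enhΔ/Δ. Markers of heart muscle summed to 6.70 to 61.8 CPM in +/+ and 10.8 to 58.8 CPM in enhΔ/Δ, and those of neural ectoderm to at most 3.07 CPM in any of the 11.

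Etv2 itself was low in these libraries at E8.5. Its level in +/+ had a lowest value of 0, a median of 0.0903 and a highest value of 0.491 CPM, and the 5 enhΔ/Δ libraries had 0.565, 2.14, 0.220, 1.42 and 2.98 CPM. The groups overlapped through enhΔ/Δ replicate 3. The difference was 0.92 (SE 0.27) on the log2(CPM + 1) scale and was not called by limma (adjusted p = 0.0972); without enhΔ/Δ replicate 3 it was 1.15 and called (adjusted p = 0.0280). These counts cover the whole gene, including the exons that the Δ allele keeps, so they do not check the genotype label. By quantitative PCR in embryos at E8.5, the study reported reduced Etv2 in enhΔ/Δ, the opposite direction. Why the measures differ was not tested. Of the 10 gene models on either side of Etv2, 15 were measured and none was called.

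In enhΔ/Δ yolk sacs many red cell genes fell and a smaller set of extracellular matrix genes rose. Differences are given as enhΔ/Δ minus +/+ in log2(CPM + 1) from a limma fit over all genes, in which a value of -1 is a 2-fold fall and which understates the change of genes with low CPM, and a gene was called at an adjusted p under 0.05. Of 18477 genes, 183 were lower (0.99%) and 62 were higher (0.336%). A change of 2-fold or more was seen in 98 of the falls and 20 of the rises. The median difference of the called genes was -1.09 among the lower and 0.77 among the higher, against 0.01 over all genes. No enhΔ/Δ library overlapped the +/+ libraries in 155 of the 183 falls and 49 of the 62 rises; over all genes, 1.99% lay below every +/+ library and 1.43% above. Across 7 lists of erythroid genes with 90 measured members, 42 were lower (46.7%) and 1 was higher, and 79 of the 90 had a difference below 0. Across 3 lists of matrix genes with 57 measured members, 12 were higher (21.1%), none was lower, and 55 had a difference above 0. By comparison, 48.6% of all genes had a difference below 0 and 51.4% above.

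**Figure D1:**
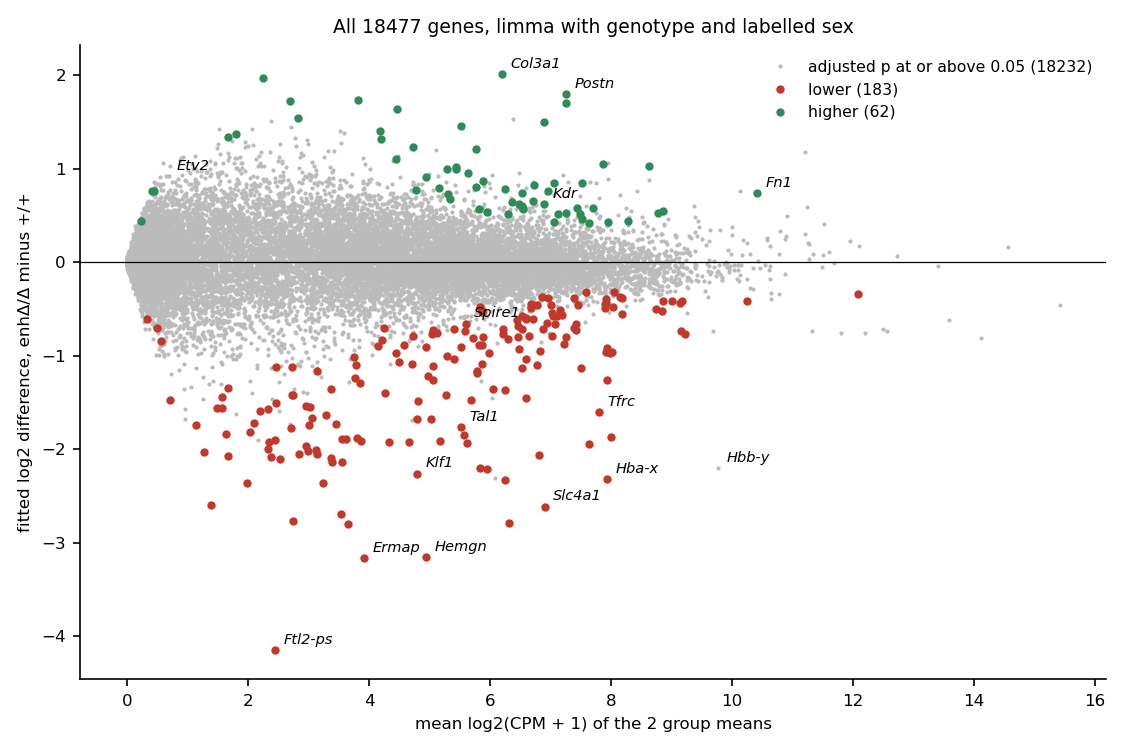
Log2 difference of enhΔ/Δ against +/+ (vertical axis) by the mean of the 2 group means of log2(CPM + 1) (horizontal axis), 1 point a gene over 18477 genes, with genes called lower in red, genes called higher in green and some genes named. Ftl2-ps has the lowest value (-4.15), the other falls reach -3.16 (Ermap), and the rises reach 2.01 (Col3a1).

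Several transcription factors that run the red cell program fell. Of 17 measured, 7 were lower (Gata1, Klf1, Tal1, Nfe2, Gfi1b, Ikzf1 and Klf3), none was higher, and all 17 had a difference below 0, with a median of -0.80. Tal1 had 47.8, 80.6 and 117 CPM (lowest, median, highest) in +/+ and 17.1, 30.9, 43.4, 14.4 and 24.5 CPM in enhΔ/Δ. The groups did not overlap, and the difference was -1.76 (SE 0.24, adjusted p = 2.76e-05 by limma). Gata1 had 17.2, 19.4 and 25.2 CPM in +/+ and 5.20, 3.02, 5.64, 5.02 and 2.39 CPM in enhΔ/Δ, or 20.7% of the +/+ mean. Its groups were also apart, with a difference of -2.10 (SE 0.25, adjusted p = 3.18e-06). Klf1, the Krüppel-like factor that activates globin, membrane and heme genes in red cells, had 44.4, 61.5 and 70.7 CPM in +/+ and 12.7, 15.3, 17.6, 7.34 and 8.60 CPM in enhΔ/Δ. It fell by 2.26 (SE 0.23, adjusted p = 3.1e-07), and the highest enhΔ/Δ library was far below the lowest +/+ library.

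Gfi1b, a transcriptional repressor that red cells and megakaryocytes need, had 7.85, 15.2 and 25.7 CPM in +/+ and 2.32, 4.18, 6.15, 2.06 and 1.42 CPM in enhΔ/Δ (-2.02, SE 0.36, adjusted p = 0.000833). Nfe2, the erythroid subunit of the NF-E2 activator, had 12.5, 23.1 and 44.7 CPM in +/+ and 5.48, 5.25, 10.2, 4.12 and 3.69 CPM in enhΔ/Δ (-1.89, SE 0.34, adjusted p = 0.00103). Neither gene overlapped between the groups, and in both enhΔ/Δ replicate 3 was the highest enhΔ/Δ library. Both calls were lost when the Ftl2-ps split was a term of the fit, with differences of -2.20 (adjusted p = 0.0527) for Gfi1b and -1.36 (adjusted p = 0.342) for Nfe2. Ikzf1, which encodes the lymphoid and erythroid factor Ikaros, was at 27.3% of its +/+ mean (-1.85, adjusted p = 2.76e-05), and Klf3, a repressor of the Klf1 family, at 53.7% (-0.90, adjusted p = 0.00104). Lmo2, a bridging partner of Tal1, was not called (-0.80, adjusted p = 0.641), nor were Ldb1, which binds Lmo2 (-0.37, adjusted p = 0.526), and Lyl1, a close relative of Tal1 (-0.93, adjusted p = 0.177). Myb, which drives definitive progenitors, had a difference of -0.24.

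**Figure D2:**
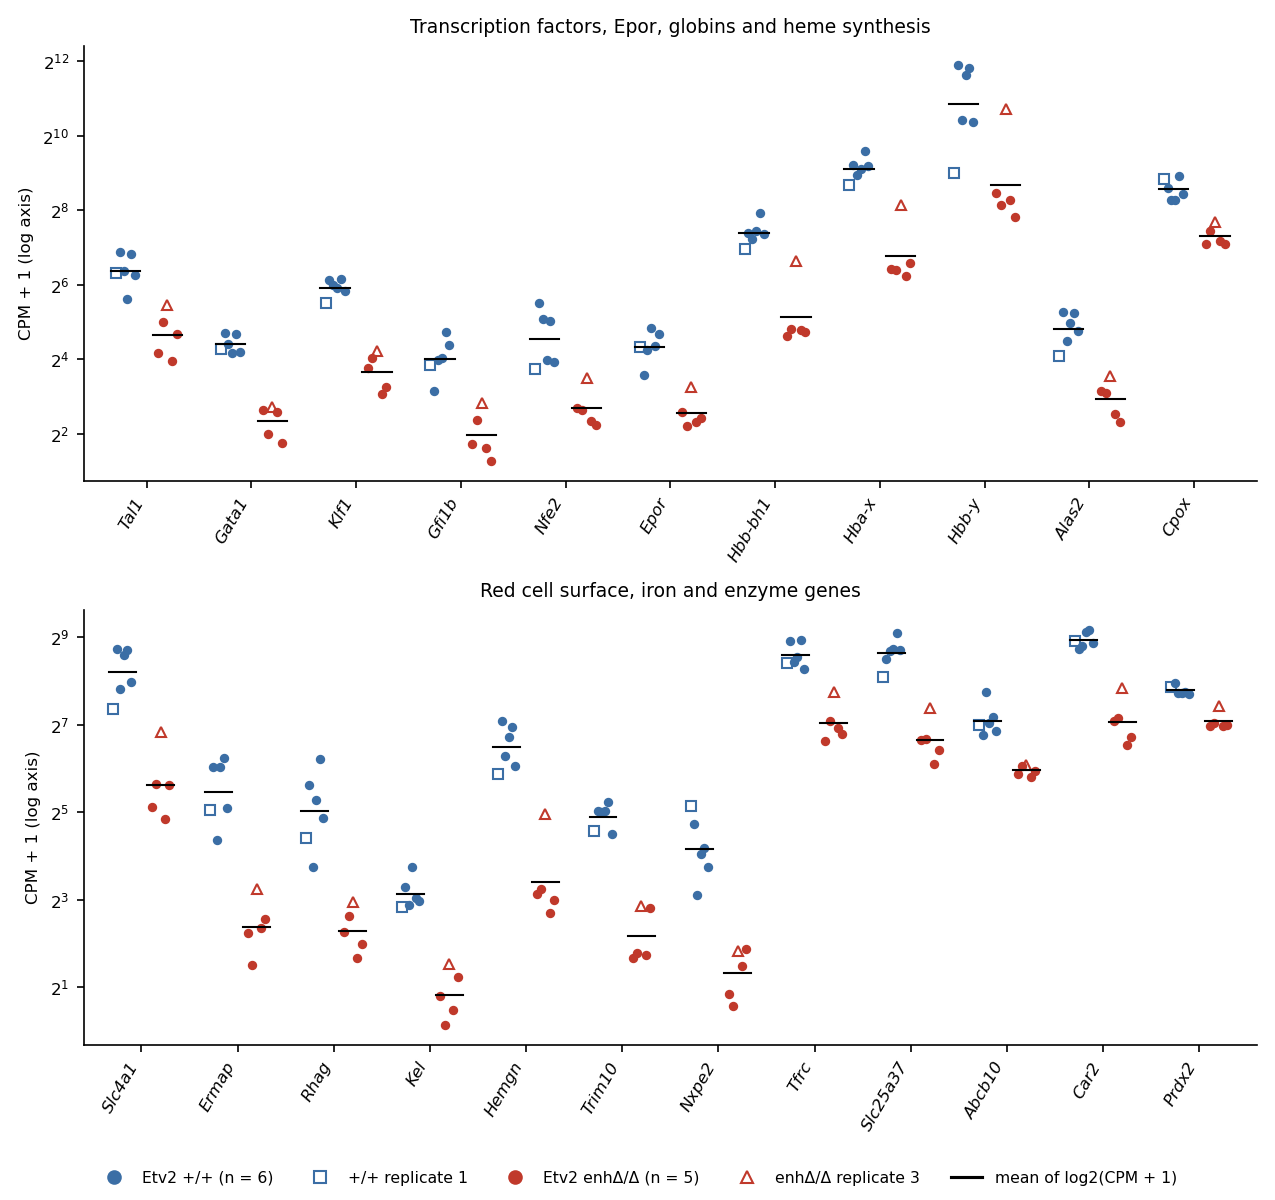
CPM + 1 of erythroid genes (log axis) in each of the 6 +/+ and 5 enhΔ/Δ libraries, with the black line at the mean of log2(CPM + 1), an open square for +/+ replicate 1 and an open triangle for enhΔ/Δ replicate 3. Tal1, Gata1, Klf1 and Slc4a1 do not overlap between the groups, and the triangle is the highest enhΔ/Δ point for Slc4a1 (112 CPM) and Hbb-bh1 (99.1 CPM).

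Embryonic globins, the oxygen carriers that primitive red cells load their cytoplasm with, were low in 4 of the 5 enhΔ/Δ libraries. Of 8 measured globin genes 2 were lower and none was higher, and all 8 had a difference below 0 (median -0.95). Hbb-bh1, an embryonic beta-like globin, had 123, 166 and 245 CPM in +/+ and 23.8, 27.3, 99.1, 26.5 and 25.8 CPM in enhΔ/Δ. Replicate 3 of enhΔ/Δ lay near the +/+ range but below it, and the difference was -2.33 (SE 0.37, adjusted p = 0.000192). Hba-x, the embryonic alpha-like globin, had 406, 566 and 769 CPM in +/+ and 85.0, 83.9, 284, 75.2 and 95.1 CPM in enhΔ/Δ (-2.32, SE 0.43, adjusted p = 0.00155). Its groups did not overlap either. Hbb-y, the other embryonic beta-like globin, had 515, 2280 and 3809 CPM in +/+ and 352, 283, 1695, 307 and 227 CPM in enhΔ/Δ. Here replicate 3 lay inside the +/+ range, and the difference of -2.20 (SE 0.63) was not called (adjusted p = 0.0801), whereas it was called without that library (-2.78, adjusted p = 0.0140) and without +/+ replicate 1 (-2.56, adjusted p = 0.0305), when low genes under a mean log2 of 1 were left out (adjusted p = 0.0471), and by voom (adjusted p = 0.0242). Hbb-bs, an adult beta globin, had at most 4.25 CPM in any of these libraries and a difference of -0.65 (adjusted p = 0.536). With the Ftl2-ps split as a term, Hbb-bh1 (-2.27, adjusted p = 0.0543) and Hba-x (-2.38, adjusted p = 0.0966) kept their size but lost their calls.

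Proteins of the red cell membrane and its skeleton made up the most affected list. Of 17 measured members 15 were lower, none was higher, and the median difference was -1.93. Slc4a1, the band 3 anion exchanger, had 163, 317 and 423 CPM in +/+ and 33.8, 49.3, 112, 27.8 and 48.2 CPM in enhΔ/Δ. Every enhΔ/Δ library lay below every +/+ library, and the difference was -2.61 (SE 0.46, adjusted p = 0.000879). Rhag, the Rh-associated glycoprotein, was at 11.3% of its +/+ mean (-2.80, adjusted p = 0.000325), as was Kel, the Kell blood group endopeptidase (-2.36, adjusted p = 6.86e-05). Ank1, the ankyrin of the skeleton under the membrane, fell by 1.91, to 26.1% of +/+. The members that were not called, Aqp1 (-0.31) and Slc2a1 (-0.05), encode a water channel and a glucose transporter. Slc2a1 had 2516 to 3357 CPM in +/+ and 2536 to 3411 CPM in enhΔ/Δ, so its groups overlapped throughout. With the Ftl2-ps split as a term, Rhag (-2.71, adjusted p = 0.0736) and Slc4a1 (-2.42, adjusted p = 0.137) were no longer called.

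Ermap, another member of the membrane list, is an erythroblast surface protein that carries the Scianna blood group, and was at 9.63% of its +/+ mean (-3.16, SE 0.43, adjusted p = 2.76e-05). Outside that list, Hemgn, a nuclear protein of blood progenitors and erythroblasts, had 57.2, 91.0 and 134 CPM in +/+ and 7.74, 8.47, 29.9, 5.54 and 6.99 CPM in enhΔ/Δ (-3.15, SE 0.41, adjusted p = 1.19e-05). No enhΔ/Δ library reached the +/+ range for either gene. Trim10, a tripartite motif protein of maturing erythroblasts, fell by 2.69 (adjusted p = 3.93e-07). Nxpe2 fell by 2.77 (adjusted p = 0.00341), a call that was lost by voom on whole reads (adjusted p = 0.0681), and Pkhd1l1 fell by 2.36 (adjusted p = 9.31e-05). The promoters of 4 genes among the 12 largest falls are shown because GATA factors are known to bind their motif at promoters of red cell genes. They run from 250 bases before to 50 after a transcript start, come from the RefSeq promoter table (build GRCm38.p6) and were placed on mm9 by exact match, and capitals mark a GATA motif (AGATAA with T allowed as the first base and G as the last, on either strand).
Hemgn, chr4:46417006-46417305, minus strand: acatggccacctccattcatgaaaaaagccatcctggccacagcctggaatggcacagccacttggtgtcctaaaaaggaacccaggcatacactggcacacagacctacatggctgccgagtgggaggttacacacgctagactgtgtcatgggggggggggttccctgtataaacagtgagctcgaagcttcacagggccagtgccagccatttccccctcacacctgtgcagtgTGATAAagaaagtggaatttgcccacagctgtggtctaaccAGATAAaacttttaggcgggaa
Klf1, chr8:87425631-87425930, plus strand: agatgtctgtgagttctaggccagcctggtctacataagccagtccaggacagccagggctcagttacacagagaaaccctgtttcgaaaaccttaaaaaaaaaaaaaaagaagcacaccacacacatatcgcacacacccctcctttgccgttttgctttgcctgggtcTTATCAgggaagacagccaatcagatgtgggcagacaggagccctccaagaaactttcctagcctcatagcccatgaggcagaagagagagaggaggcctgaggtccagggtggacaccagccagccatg
Kel, chr6:41654275-41654574, minus strand: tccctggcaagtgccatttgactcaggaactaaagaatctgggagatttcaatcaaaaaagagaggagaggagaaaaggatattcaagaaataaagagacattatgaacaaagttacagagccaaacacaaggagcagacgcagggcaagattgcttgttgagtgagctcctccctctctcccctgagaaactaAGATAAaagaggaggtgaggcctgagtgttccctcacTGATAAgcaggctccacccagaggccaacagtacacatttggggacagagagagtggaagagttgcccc
Nxpe2, chr9:48148932-48149231, minus strand: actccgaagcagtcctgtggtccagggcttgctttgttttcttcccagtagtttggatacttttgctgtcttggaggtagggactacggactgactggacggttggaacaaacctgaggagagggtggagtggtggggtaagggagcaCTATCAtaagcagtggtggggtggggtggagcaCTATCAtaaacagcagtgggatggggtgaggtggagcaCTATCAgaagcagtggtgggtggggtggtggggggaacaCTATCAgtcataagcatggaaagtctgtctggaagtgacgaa
The start used for Hemgn lies 9323 bases and that for Nxpe2 12556 bases inside the gene model of the count table, while those of Klf1 and Kel lie 54 and 14 bases inside it. Hemgn holds 2 such motifs, at -13 and 29 relative to the start, Klf1 holds 1 at -80, Kel holds 2 at -56 and -19, and Nxpe2 holds 4 at -102, -69, -31 and 9. A window was found for 8 of the 12 largest falls and for 9 of the 12 largest rises, where genes with several starts have several windows. All 8 windows of the falls held at least 1 GATA motif, and 1 of the 12 windows of the rises did (Col3a1). The motif was in 49 of 172 windows of called lower genes (28.5%), in 6 of 51 windows of called higher genes (11.8%), in 20.3% of windows of all genes in the table and in 29.8% of all 32851 windows of this length. The ETS core GGAA, on either strand, was in 93% to 100% of the windows of each of these sets. A motif match describes these letters and is no evidence of binding.

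Most heme enzymes and a minority of the iron genes fell. Of 8 heme enzymes 6 were lower (Alas2, Uros, Urod, Cpox and Fech among them), and Alad (-0.86) and Ppox (-0.94) also had values below 0 without a call, with a median of -1.17 for the list. Alas2, the erythroid enzyme of the first step, had 16.1, 28.3 and 37.8 CPM in +/+ and 7.91, 7.49, 10.7, 4.76 and 4.01 CPM in enhΔ/Δ (-1.91, SE 0.27, adjusted p = 2.82e-05). Cpox, a later enzyme of the pathway, fell by 1.26, and Fech, which inserts the iron, by 1.14, to 46.7% of +/+. No library of either group overlapped the other for these 3 genes. In the iron list, 5 of 15 were lower (Tfrc, Slc25a37, Steap3, Abcb10 and Tmem14c) and 1 was higher (Ftl1), with a median of -0.32. Tfrc, the transferrin receptor, had 307, 357 and 487 CPM in +/+ and 98.3, 134, 212, 121 and 109.9 CPM in enhΔ/Δ (-1.60, SE 0.18, adjusted p = 1.47e-06). Slc25a37, mitoferrin, which carries iron into mitochondria, was at 25.6% of +/+ (-1.94, adjusted p = 5.32e-05), and Steap3, an endosomal ferrireductase, at 19.8% (-2.13, adjusted p = 0.000617). Ftl1, the ferritin light chain, had 30.9 to 43.2 CPM in +/+ replicates 2 to 6, 74.8 CPM in +/+ replicate 1 and 66.4 to 94.7 CPM in enhΔ/Δ (0.87, adjusted p = 0.0058). Ftl1 and Ftl2-ps are near-identical copies that can share reads, and with the Ftl2-ps split as a term the Ftl1 difference was 0.07, so its rise is uncertain.

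Among receptors that erythroid cells use, Epor, the erythropoietin receptor, had 11, 19.2 and 27.5 CPM in +/+ and 5.03, 3.60, 8.57, 3.99 and 4.33 CPM in enhΔ/Δ. The groups did not overlap, and the difference was -1.73 (SE 0.26, adjusted p = 9.89e-05). It was the 1 called gene of 13 in the erythropoietin and Kit list, whose median was 0.04, and Kit, the stem cell factor receptor of progenitors, had a difference of 0.04 (adjusted p = 0.987). Of 12 red cell enzymes and antioxidants 6 were lower (Car2, Bpgm, Blvrb, Prdx2, Gpx1 and Gclm), none was higher, and all 12 had a difference below 0 (median -0.72). Car2, carbonic anhydrase 2, fell by 1.87 to 28.5% of +/+ (adjusted p = 1.06e-06), and Prdx2, an abundant peroxiredoxin of red cells, by 0.73 to 61.6% (adjusted p = 0.00134).

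**Figure D3:**
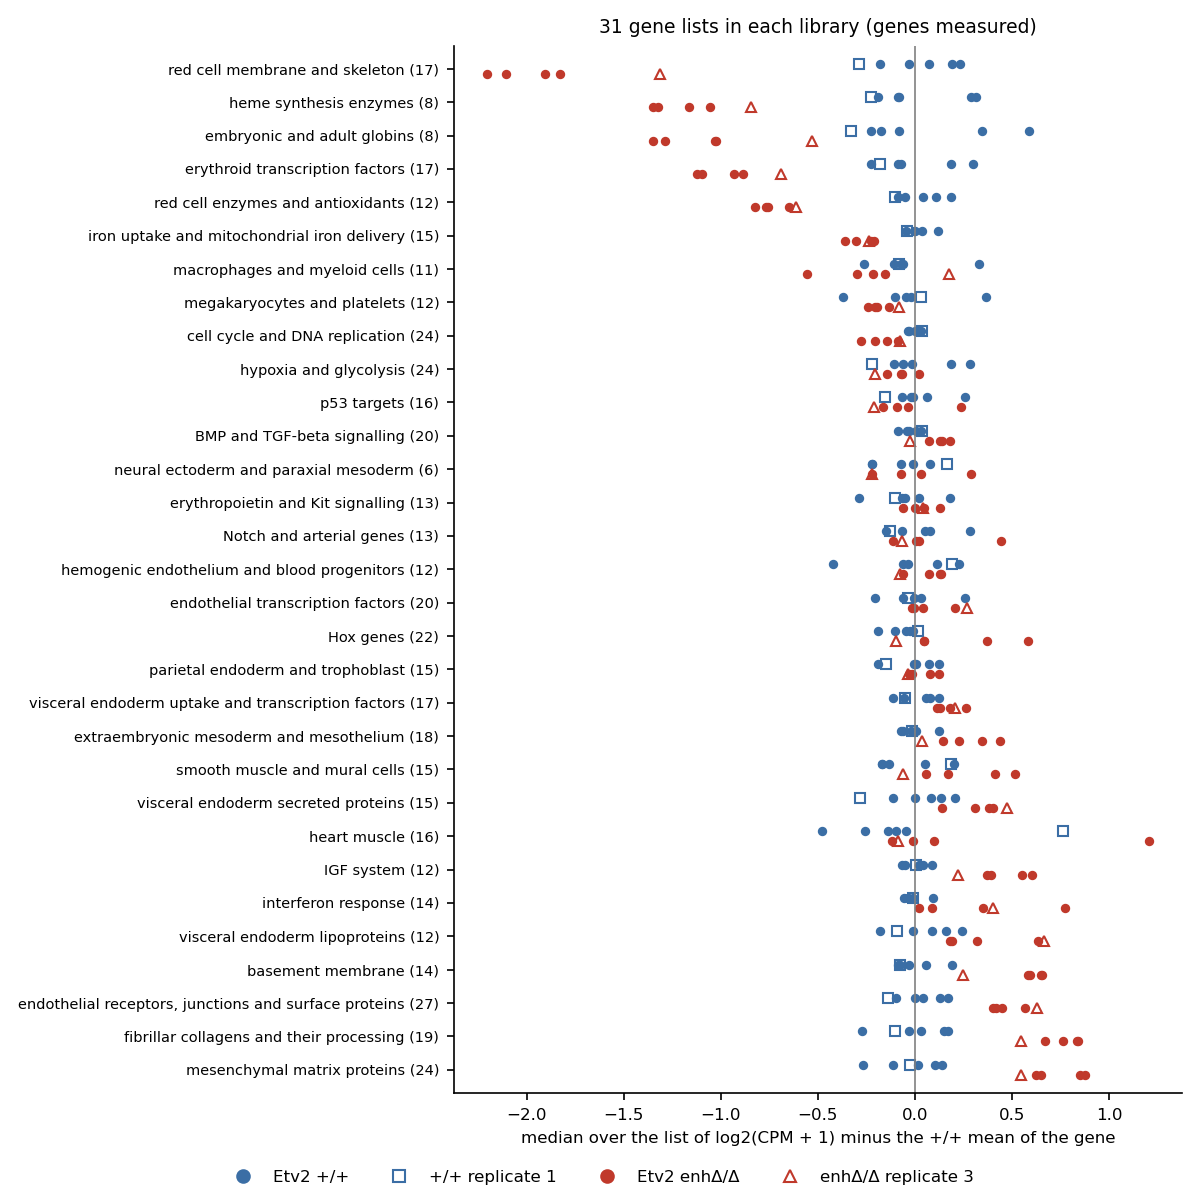
Median over the members of each gene list of the log2(CPM + 1) distance from the +/+ mean (horizontal axis, log2 units), 1 point a library, with an open square for +/+ replicate 1 and an open triangle for enhΔ/Δ replicate 3. The red cell membrane list lies at -2.20, -1.90, -1.31, -2.11 and -1.83 in enhΔ/Δ replicates 1 to 5, and the fibrillar collagen list at 0.84, 0.76, 0.55, 0.84 and 0.67.

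In 6 of the 7 erythroid lists every enhΔ/Δ library lay below every +/+ library, and in 5 of those 6 replicate 3 was the highest enhΔ/Δ library. In the iron list the 5 libraries lay at -0.36, -0.21, -0.23, -0.30 and -0.23, and in the erythropoietin and Kit list the groups overlapped. The globin list lay at -1.29, -1.03, -0.53, -1.35 and -1.03 in enhΔ/Δ replicates 1 to 5, measured from the +/+ mean, the heme list at -1.35, -1.16, -0.84, -1.32 and -1.05, and the transcription factor list at -1.12, -0.88, -0.69, -1.10 and -0.93. Replicate 3 was the highest enhΔ/Δ library in 92 of the 183 lower genes (50.3%), and each of the other 4 was so in 15 to 29. Without it, 171 genes were lower, of which 159 were among the 183, and 135 of the 183 lay further below +/+. The median of the membrane list went from -1.93 to -2.23 without it, and that of the globin list from -0.95 to -1.18 with 3 genes called.

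Other blood lineages and the progenitor stage had few or no called genes. In the list of hemogenic endothelium and blood progenitors, 1 of 12 was called, the rise of Kdr, and the median was 0.07. Runx1, the factor that endothelium needs to give rise to definitive blood, had 43.5, 50.7 and 58.1 CPM in +/+ and 39.4, 55.2, 38.4, 40.3 and 31.2 CPM in enhΔ/Δ. The groups overlapped, and the difference of -0.32 (SE 0.18) was not called (adjusted p = 0.511). None of 12 megakaryocyte and platelet genes (median -0.19) and none of 11 macrophage and myeloid genes (median -0.22) was called. In +/+, 6 of these megakaryocyte and 5 of these macrophage genes had a mean log2(CPM + 1) under 1, so that few changes could be detected. The 4 macrophage markers measured summed to 0.670 to 15.5 CPM in +/+ and 1.02 to 5.57 CPM in enhΔ/Δ, levels at which a change was hardly detectable at this depth.

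No gene of the 2 endothelial lists was lower except Tal1, which serves both lineages. Of 20 endothelial transcription factors Tal1 was the only call, and the median was 0.10. Fli1, an ETS factor of endothelium and blood, had 28.7, 38.8 and 44.6 CPM in +/+ and 37.6, 52.6, 46.1, 32.4 and 49.2 CPM in enhΔ/Δ. These ranges overlapped (0.19, SE 0.19, adjusted p = 0.775), as did those of its relative Ets1 (0.20, adjusted p = 0.651). Of 27 endothelial receptors, junction and surface proteins 2 were higher (Kdr and Nrp2), none was lower, and 26 had a difference above 0, with a median of 0.58. In the 5 enhΔ/Δ libraries the list lay at 0.40, 0.45, 0.63, 0.57 and 0.42 from the +/+ mean. Kdr, the main VEGF receptor of endothelium and of the mesoderm that precedes it, had 66.7, 106 and 116 CPM in +/+ and 145, 146, 149, 129.6 and 154 CPM in enhΔ/Δ (0.62, SE 0.15, adjusted p = 0.0265). Cdh5, VE-cadherin, had 60.8, 91.0 and 95.7 CPM in +/+ and 127, 118, 131, 138 and 119.5 CPM in enhΔ/Δ. Although the groups did not overlap for either gene, the Cdh5 difference of 0.59 (SE 0.28) was not called (adjusted p = 0.393). It was called when only the 11 libraries of both groups were fitted (0.63, adjusted p = 0.0157).

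Nrp2, a VEGF and semaphorin co-receptor, was at 149% of +/+ (0.58, adjusted p = 0.043), and Tek, the angiopoietin receptor, had a difference of 0.42 (adjusted p = 0.23). Pecam1, the junction protein CD31, had a difference of 0.48 (adjusted p = 0.463). The 6 endothelial markers Cdh5, Pecam1, Kdr, Tek, Esam and Cldn5 summed to 240 to 386 CPM in +/+ and 468 to 522 CPM in enhΔ/Δ. The Kdr call was lost with the Ftl2-ps split as a term (0.68, adjusted p = 0.270), with the mitochondrial share as a term (0.55, adjusted p = 0.0868), without a sex term (0.57, adjusted p = 0.0651), and without any of 6 libraries (+/+ replicates 1 and 2, enhΔ/Δ replicates 1, 2, 4 and 5), where the difference was 0.52 to 0.64. None of 13 Notch and arterial genes was called (median 0.06), and none of 20 BMP and TGF-beta signalling genes (median 0.00).

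**Figure D4:**
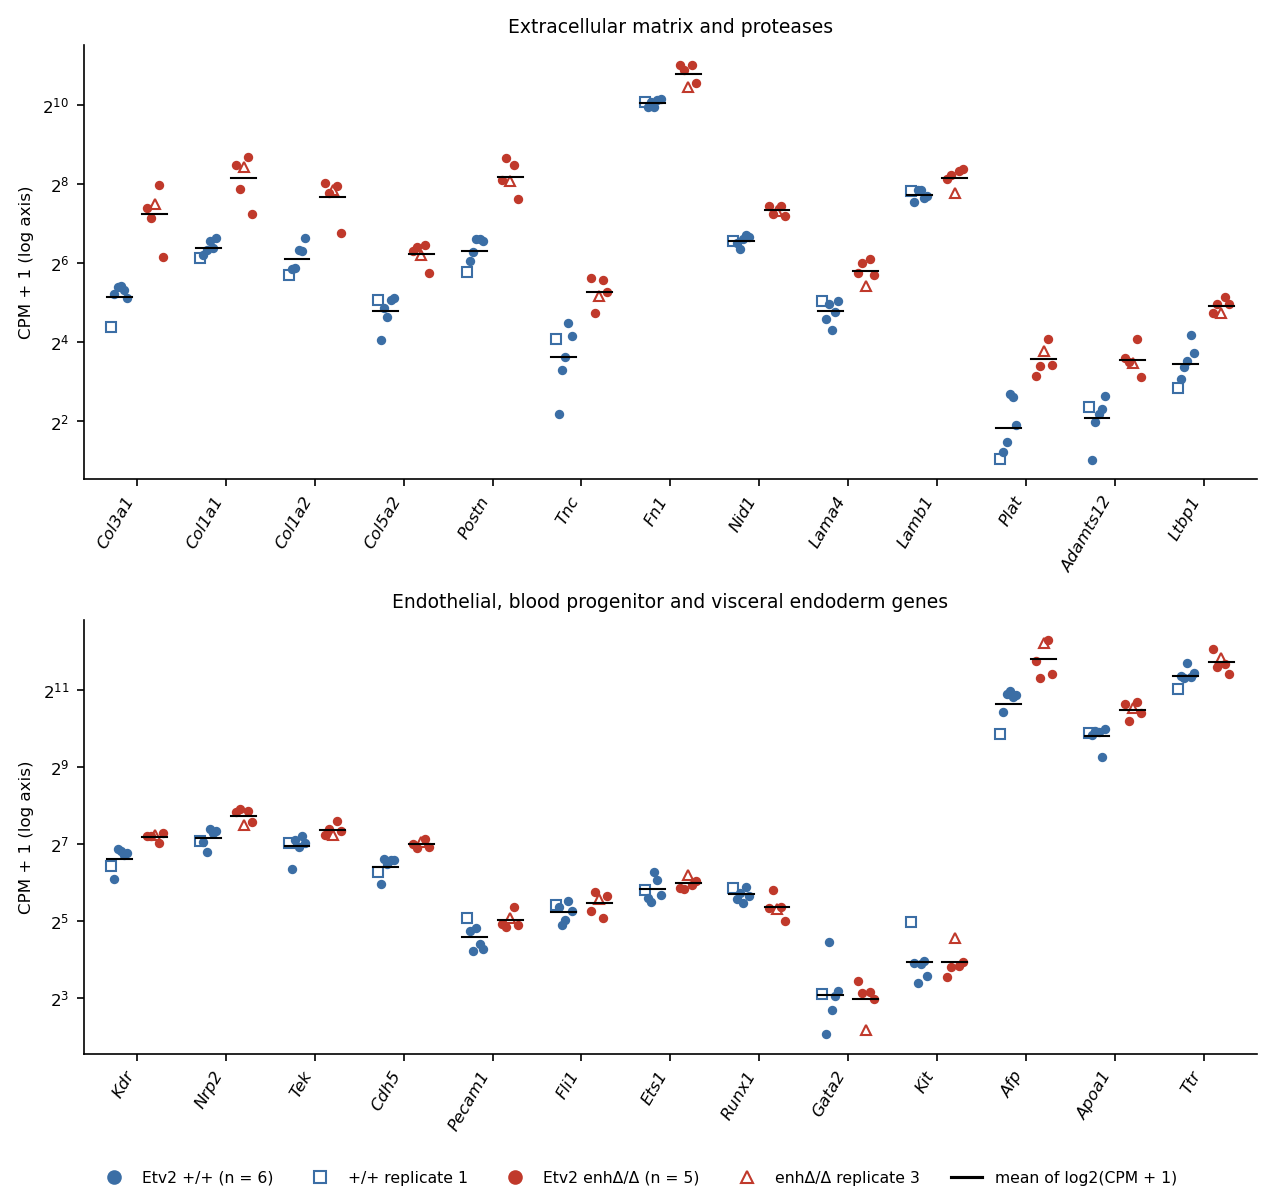
CPM + 1 of matrix, endothelial, blood progenitor and visceral endoderm genes (log axis) in each of the 6 +/+ and 5 enhΔ/Δ libraries, with the black line at the mean of log2(CPM + 1), an open square for +/+ replicate 1 and an open triangle for enhΔ/Δ replicate 3. For Col3a1 the +/+ libraries reach 42.4 CPM and the enhΔ/Δ libraries start at 70.9 CPM, whereas Fli1 and Runx1 overlap.

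A minority of the collagens and other matrix proteins of mesenchymal cells rose. Of 19 fibrillar collagens and their processing enzymes 4 were higher (Col1a1, Col1a2, Col3a1 and Col5a2), none was lower, and all 19 had a difference above 0 (median 0.62). Col3a1, the fibrillar collagen of soft tissue and vessel walls, had 19.9, 37.7 and 42.4 CPM in +/+ and 169, 141, 179.9, 250.1 and 70.9 CPM in enhΔ/Δ. It was the largest called rise, to 457% of the +/+ mean (2.01, SE 0.31, adjusted p = 0.00015), with replicate 5 the lowest enhΔ/Δ library and still above every +/+ library. Col1a1, a chain of type I collagen, had 69.5, 81.4 and 98.6 CPM in +/+ and 357, 237, 344, 416 and 150.1 CPM in enhΔ/Δ (1.70, SE 0.42, adjusted p = 0.0284). Col1a2, its partner chain, was at 303% (1.50, adjusted p = 0.00508), and Col5a2 at 271% (1.46, adjusted p = 0.000164). The Col1a1 call was lost without enhΔ/Δ replicate 3 (1.58, adjusted p = 0.0853) and without any of 5 other libraries (+/+ replicates 1, 2 and 3, enhΔ/Δ replicates 1 and 4), at 1.57 to 1.70. The calls of Col1a1 (2.28, adjusted p = 0.0870) and Col5a2 (1.25, adjusted p = 0.0935) were also lost with the Ftl2-ps split as a term, and that of Col1a1 with the mitochondrial share (1.52, adjusted p = 0.0957).

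Of 24 mesenchymal matrix proteins 4 were higher (Postn, Fn1, Tnc and Lum), none was lower, and 23 had a difference above 0 (median 0.71). Postn, periostin, a secreted matrix protein of mesenchyme, had 53.6, 85.6 and 97.9 CPM in +/+ and 274, 406, 269, 356 and 196 CPM in enhΔ/Δ (1.79, SE 0.33, adjusted p = 0.00124). Fn1, fibronectin, had 988, 1086 and 1135 CPM in +/+ and 2066, 1907, 1401, 2068 and 1520 CPM in enhΔ/Δ (0.74, SE 0.17, adjusted p = 0.0164). Neither gene overlapped between the groups. Tnc, tenascin C, was at 297% of +/+ (1.63, adjusted p = 0.0296), and Lum, the collagen-binding proteoglycan lumican, at 205% (1.03, adjusted p = 0.0264). Of 14 basement membrane genes 4 were higher (Lama4, Lamb1, Nid1 and Hspg2) and 13 had a difference above 0 (median 0.55). Nid1, nidogen, which links laminin to type IV collagen, had a difference of 0.76 (SE 0.12, adjusted p = 0.000112), and Lama4, the laminin alpha chain of vessels, was at 204% (1.00, adjusted p = 0.00104). Fn1 (0.73, adjusted p = 0.323) and Tnc (1.45, adjusted p = 0.458) were not called with the Ftl2-ps split as a term, nor was Fn1 with the mitochondrial share as a term (0.56, adjusted p = 0.0584). The call of Fn1 was also lost without any of 4 libraries (+/+ replicate 2, enhΔ/Δ replicates 1, 2 and 4), at 0.68 to 0.72, and that of Tnc without any of 7 (+/+ replicates 2, 3 and 4, enhΔ/Δ replicates 1, 3, 4 and 5), at 1.23 to 1.66.

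The other large rises included Ngfr, the low-affinity neurotrophin receptor (1.97, adjusted p = 0.0296), Fcgrt, the neonatal Fc receptor that carries immunoglobulin across epithelia (1.73, adjusted p = 0.00109), and Plat, tissue plasminogen activator (1.73, adjusted p = 0.0266). Fcgrt had 2.89, 7.98 and 10.5 CPM in +/+ and 17.1, 22.7, 28.3, 26.4 and 31.8 CPM in enhΔ/Δ, without overlap. Adamts12, a secreted metalloprotease (1.54), Ltbp1, which holds latent TGF-beta in the matrix (1.40), and Rcn3, a calcium-binding protein of the endoplasmic reticulum (1.23), completed the 12 largest. Of these 6 genes, Fcgrt alone was called in the fit with the Ftl2-ps split. Calls were also lost without 1 library, that of Ngfr without any of 7 (+/+ replicates 2, 4 and 5, enhΔ/Δ replicates 2 to 5, at 1.61 to 1.98), that of Plat without any of 6 (+/+ replicates 1 to 3, enhΔ/Δ replicates 3 to 5, at 1.55 to 1.76), that of Rcn3 without any but +/+ replicate 3 and enhΔ/Δ replicate 5 (1.16 to 1.24), and that of Adamts12 without +/+ replicate 2 or enhΔ/Δ replicate 4 (1.33 and 1.37). By voom, Plat, Col1a1, Tnc and Rcn3 missed the threshold (adjusted p = 0.0558, 0.0519, 0.0822 and 0.0517), as did Ngfr (adjusted p = 0.0541) and Rcn3 (adjusted p = 0.142) with the mitochondrial share as a term and Ngfr with a pseudocount of 0.25 (adjusted p = 0.0801). In 3 further lists of mesoderm derivatives, called genes were rare: none of 15 smooth muscle genes (median 0.26), 1 of 18 extraembryonic mesoderm and mesothelium genes (Postn, median 0.25) and none of 16 heart muscle genes (median 0.29) passed. Of the heart genes, 7 had a mean log2(CPM + 1) under 1 in +/+. The heart median is not stable, since it was -0.41 with the Ftl2-ps split as a term and -0.81 against +/+ replicate 1 alone.

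The visceral endoderm, the epithelium that supplies the conceptus before the placenta does, had no called gene in its 3 lists. All 12 lipoprotein genes (median 0.42) and all 15 genes of secreted proteins (median 0.26) had a difference above 0, and so had 14 of 17 uptake receptors and transcription factors (median 0.25). Afp, alpha-fetoprotein, had 926, 1819 and 1994 CPM in +/+ and 3454, 2518, 4747, 4991 and 2722 CPM in enhΔ/Δ. The groups did not overlap, yet the difference of 1.18 (SE 0.34) was not called (adjusted p = 0.0801). Apoa1, the main apolipoprotein of HDL, had a difference of 0.76 (adjusted p = 0.151) without overlap, and Cubn, the uptake receptor cubilin, one of -0.04 (adjusted p = 0.949) with full overlap.

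Metabolic, stress and patterning lists held few called genes. In the hypoxia and glycolysis list 2 of 24 were lower, with a median of -0.08. The lower genes were Pdk1, a kinase of pyruvate dehydrogenase (-0.80, adjusted p = 0.00161), and Bnip3l (-0.79, adjusted p = 0.000206). Bnip3l encodes the mitophagy receptor NIX that maturing red cells use to clear mitochondria. Vegfa, the ligand of Kdr, had a difference of -0.18 (adjusted p = 0.722). None of 24 cell cycle and DNA replication genes was called, although 21 had a difference below 0 (median -0.17). None of 16 p53 targets (median 0.00), 14 interferon response genes (median 0.42), 22 Hox genes (median 0.15) or 6 neural and paraxial genes (median 0.02) was called. In +/+, a mean log2(CPM + 1) under 1 was seen in 14 of the Hox, 7 of the interferon and 5 of the neural genes. At such levels a change was hardly detectable. In the IGF system 1 of 12 was higher (median 0.41): Igf2r, the receptor that removes the growth factor IGF2 (0.53, adjusted p = 0.0264). Igf2 itself had 1530 to 1825 CPM in +/+ and 1916 to 2666 CPM in enhΔ/Δ without overlap (0.49, adjusted p = 0.0724). The 1 called gene of 15 in the parietal endoderm and trophoblast list was Lamb1 (0.43, adjusted p = 0.0314), a laminin chain that the basement membrane list also holds.

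Most called genes belonged to none of the 31 lists (139 falls and 46 rises), and those of them named here were chosen after their values were seen. Several lower ones encode further blood group or surface proteins of red cells: Xk, the partner of Kell (-1.93, adjusted p = 1.07e-06), Art4, the Dombrock carrier (-1.89, adjusted p = 0.00158), Ache, acetylcholinesterase (-1.44), and Gypc, glycophorin C (-1.0). Mfsd2b, the sphingosine 1-phosphate exporter of red cells, fell by 1.42. Xk had 79.2 to 114 CPM in +/+ and 17.9 to 29.9 CPM in enhΔ/Δ. Ell2, a subunit of elongation complexes, had 188, 219.5 and 326 CPM in +/+ and 46.5, 47.3, 109, 42.7 and 43.2 CPM in enhΔ/Δ (-2.06, SE 0.26, adjusted p = 6.12e-06), again with replicate 3 the highest. Eif2ak1, the heme-regulated kinase that holds back translation when heme is short, fell by 0.77. Mllt3, a chromatin reader of blood progenitors (-1.03, adjusted p = 1.48e-06), Lin28b, which keeps fetal traits in blood progenitors (-0.93, adjusted p = 0.0121), and Myc (-0.72, adjusted p = 0.0378) were lower as well.

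Other lower genes were Slc38a5, a glutamine and serine transporter (-2.06, adjusted p = 3.18e-06), Slc43a1, a transporter of large neutral amino acids (-1.42), Slc7a1, which imports arginine (-1.16), Asns, asparagine synthetase (-0.97, adjusted p = 0.000259), Mthfd2, a mitochondrial folate enzyme (-0.83), and Prps1, which makes the ribose donor of nucleotides (-0.88). Slc38a5 had 9.37 to 17 CPM in +/+ and 1.29 to 3.31 CPM in enhΔ/Δ. Among the higher genes were P3h1, prolyl 3-hydroxylase (0.80, adjusted p = 0.0343), Fkbp10, a collagen chaperone (1.32, adjusted p = 0.0132), and Creb3l1, a membrane-bound factor that activates collagen genes in bone cells (0.59, adjusted p = 0.00274). The imprinted growth regulators Cdkn1c, a cyclin-dependent kinase inhibitor (1.05, adjusted p = 0.0122), and Dlk1, a membrane protein related to Notch ligands (1.21, adjusted p = 0.0103), were higher. Cdkn1c had 138 to 222 CPM in +/+ and 274 to 426 CPM in enhΔ/Δ. Grb10, an imprinted adaptor of the insulin and IGF receptors, was lower (-0.44, adjusted p = 0.0325), at 407 to 541 CPM against 560 to 752 CPM in +/+.

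The allelic series also allowed the compound heterozygote to be set against its own alleles carried singly. The difference of Etv2 +/enhΔ (4 libraries) from +/+ and that of Etv2 +/Δ (6 libraries) from +/+ were added on the log2 scale, and the enhΔ/Δ difference was tested against that sum. Libraries with many and with few Ftl2-ps reads stand on both sides of this contrast, since 3 of 4 +/enhΔ libraries and no +/Δ library had many. Of 18477 genes 10 lay below the sum (0.0541%) and none above it by limma, with 729 and 654 at an unadjusted p under 0.05. By voom on the recovered reads the counts were 28 and 1. All 10 were also lower in enhΔ/Δ than in +/+. In each of them every enhΔ/Δ library lay below every library of the other 3 genotypes in the contrast. The same libraries chose these genes, so this separation describes them and is no further test. Against +/+, the calls of Ccrl2 (adjusted p = 0.149) and Spire1 (adjusted p = 0.0800) were lost with the Ftl2-ps split as a term, and that of Ccrl2 by voom (adjusted p = 0.0537). With that split as a term 8 genes lay below the sum, all among the 10, without Ccrl2 and Slc43a1. Without the 4 libraries whose sex label went against their reads, 2 of them +/Δ, 4 genes lay below it, namely Klf1, Slc38a5, Spire1 and Hipk2.

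Klf1 lay at -2.01 from the sum (SE 0.33, adjusted p = 0.00573), from group means that, not adjusted for sex, differed from +/+ by 0.04 in +/enhΔ, -0.29 in +/Δ and -2.26 in enhΔ/Δ. Slc38a5, the amino acid transporter, lay at -2.24 from the sum (SE 0.36, adjusted p = 0.00513), and its single-allele means differed from +/+ by 0.14 and -0.00. Tmem56 lay at -2.34 from it (SE 0.44, adjusted p = 0.0193), as did Ccrl2, an atypical chemokine receptor (SE 0.48, adjusted p = 0.0474). Also below it were Cited4, a transcriptional co-regulator (-1.72), Cecr2, a chromatin remodelling protein (-1.59), Slc43a1 (-1.43), Spire1, an actin nucleator (-1.25), and Hipk2, a nuclear kinase that acts in red cell maturation (-1.12). Among the 183 genes lower than +/+, 176 lay below the sum in value (median -0.70) and 115 at an unadjusted p under 0.05, and among the 62 higher genes 56 lay above it (median 0.49) and 28 at that p. These counts use the same enhΔ/Δ and +/+ libraries that made the calls, and so describe the genes without testing them again. With only +/+ replicate 1 as wild type, the calls of the genes below the sum were lost, while other genes passed on either side of it. Leaving out a library of either group gave 6 to 20 genes below the sum, with 16 without +/+ replicate 5, 20 without enhΔ/Δ replicate 3 and 6 without enhΔ/Δ replicate 4. In these fits the call of Ccrl2 held only without +/+ replicate 5 or 6. That of Slc43a1 held only without +/+ replicate 3 or 5 or enhΔ/Δ replicate 3. The call of Tmem56 was lost without +/+ replicate 2 and without enhΔ/Δ replicate 4 or 5. Cecr2 lost its call without enhΔ/Δ replicate 2, and Cited4 without enhΔ/Δ replicate 4.

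**Figure D5:**
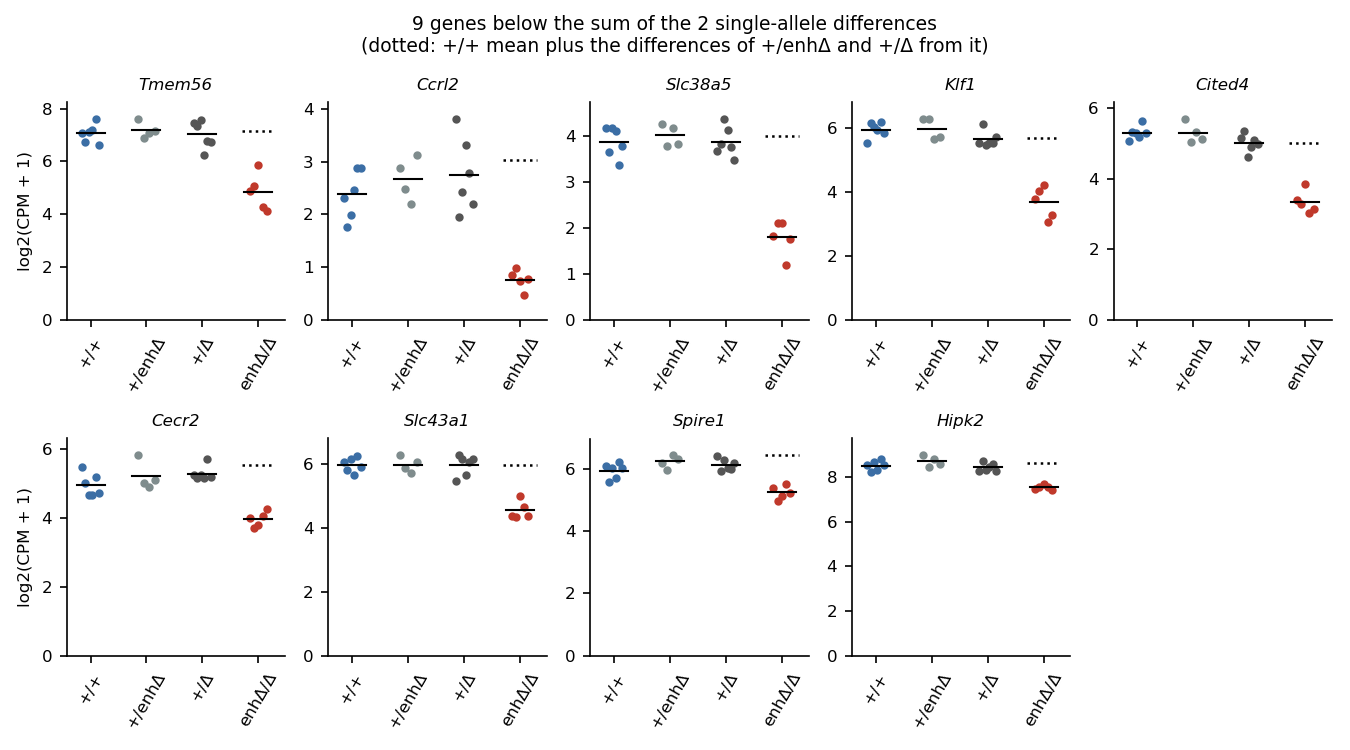
Log2(CPM + 1) of 9 genes below the sum of the single-allele differences, in the libraries of +/+, +/enhΔ, +/Δ and enhΔ/Δ, 1 point a library, with the black line at each group's mean and the dotted line at the +/+ mean plus the differences of +/enhΔ and +/Δ from it. In all 9 genes the 5 enhΔ/Δ libraries lie below the other 16 libraries drawn. The same libraries served to choose these genes.

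The split of Ftl2-ps reads bears on how many genes pass, more than on the size of their changes. With it as a term of the fit, 182 of the 183 lower and all 62 higher genes kept their sign, with medians of -1.13 and 0.74, while the median SE went from 0.20 to 0.29 among the lower and from 0.19 to 0.28 among the higher. That fit still called 62 of the falls and 7 of the rises. Against +/+ replicate 1 alone, the +/+ library that has few Ftl2-ps reads like the enhΔ/Δ libraries, 181 and 62 kept their sign and the medians were -0.95 and 0.82. This sets 5 libraries against a single one, whose spread is taken to be that of the other groups. That library lay above every enhΔ/Δ library in 174 of the 183 lower genes and below every one in 58 of the 62 higher genes, having itself been part of the calls. Klf1 (44.4 CPM) and Tfrc (337 CPM) in +/+ replicate 1 lay above the highest enhΔ/Δ values of 17.6 and 212 CPM.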

How the data were processed

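RNA from single E8.5 yolk sacs (10 ng) was made into libraries and sequenced by the authors, aligned with STAR 2.5.2a to mm9, counted with featureCounts and, per the deposited table, scaled by normalization factors and given as log2(CPM + 1), a log2 value per gene and library for 18477 genes and 31 libraries. The deposited table also holds the authors' own log2 fold changes, test scores (likelihood ratios) and p-values with false discovery rates per genotype, which were not used. The authors' model had 2 processing batches, and no batch label is given in the sources used here, so batch could not be entered and its part in the results was not tested. Of the symbols, 872 were blank and 22 had turned into dates or numbers, and Ensembl IDs were then used. Deposited values were turned back into reads, and 100% came out whole within 0.01 reads.

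All 31 libraries entered 1 linear model of the log2 values on genotype and labelled sex, run in R 4.3.3 with the trend option of limma 3.58.1, with no filter, 24 residual degrees of freedom, and Benjamini-Hochberg adjustment over all 18477 genes. Single library measures were compared by exact permutation (scipy 1.17.1). The fit was tested on simulated data, where 74% of 100 genes changed 2-fold and 100% of 100 changed 4-fold were called for this comparison. The changed genes were drawn from genes that were not low in CPM, and all genes had the same dispersion. No batch, Ftl2-ps split or outlying library was simulated. These shares therefore do not hold for low genes or for genes that vary more between libraries. Members and gene lists were chosen with earlier results of these data known. Genes were named by rule: Etv2, Ftl2-ps and Xist, the 12 largest called falls and rises without overlap and with a mean log2 of at least 2, the first 2 members and the 2 with the smallest p of each of 31 lists, up to 5 genes each way from the sum of both alleles, and the gene models around Etv2; others named were chosen after their values were seen. Nothing in the labels names litters or separate sessions. The limma p-values rest on the spread between yolk sacs of the same genotype, pooled over all 31 libraries. Litter and batch were not in the model, so their part in that spread or in a genotype difference was not tested. Cx3cr1, C1qa, Nkx2-5, Sox1 and Six3 were fixed as markers and are not analysed here, and some other list members are not reported here. Alternatives were the Ftl2-ps split or the mitochondrial share as a term, no sex term, a pseudocount of 0.25, a minimum mean log2 of 1, quantile normalization, voom on the recovered reads, only the groups compared, a replicate block, each library left out in turn and, chosen after seeing the data, the 4 libraries with a conflicting sex label left out.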

Additional observations from a re-analysis of the deposited data

Results flagged for a closer look

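In 56 groups of values tested, 8 had 1 library far from the rest of its group by Dixon's test, of which chance gives about 1 in 20. For Ftl2-ps it was +/+ replicate 1, at 0.180 CPM against 36.5 to 45.5 CPM in the other 5 +/+ libraries. In the other 7 it was replicate 3 of enhΔ/Δ, each time above its group. Its level was 284 CPM against 75.2 to 95.1 for Hba-x, 99.1 against 23.8 to 27.3 for Hbb-bh1 and 1695 against 227 to 352 for Hbb-y, the embryonic globins. It was 112 CPM against 27.8 to 49.3 for Slc4a1, of the red cell membrane. For Hemgn it was 29.9 CPM against 5.54 to 8.47, for Nfe2 10.2 against 3.69 to 5.48, and for Epor 8.57 against 3.60 to 5.03. These 7 genes all belong to the red cell program and so are not independent of each other. Why that library stands apart was not tested.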

How the results depend on the processing

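Across 22 settings, no called gene of the 43 followed turned sign except Ftl2-ps, while the number of calls moved with the libraries used as wild type. With the Ftl2-ps split as a term 69 genes were lower and 12 higher, and the cause was not tested. With only +/+ replicate 1 as wild type, most of the calls were lost. Counts of called genes are not given for that fit, since it leaves 1 wild-type library. Without the 4 libraries whose sex label went against their Xist and Y-linked reads, an alternative chosen after seeing the data, 4 genes lay below the sum, while 198 were lower and 77 higher. The higher genes numbered 124 when only the groups compared were fitted and 32 with the mitochondrial share as a term. Genes below the sum numbered 23 with a minimum mean log2 of 1, 38 with only the groups compared and 28 by voom, and those above it 1 with the mitochondrial share, 3 with only the groups compared and 1 by voom. Leaving out each library in turn gave 140 to 171 lower genes, 27 to 62 higher, 6 to 20 below the sum and 0 to 0 above. The higher count was 40, 34, 27 and 39 without enhΔ/Δ replicates 1, 2, 4 and 5, and 40 and 28 without +/+ replicates 1 and 2. Of the 43, 35 kept the call without each library in turn; Adamts12, Col1a1, Fn1, Kdr, Ngfr, Plat, Rcn3 and Tnc did not.

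Signs turned for Ftl2-ps (0.12 with its split as a term, 0.31 against +/+ replicate 1) and for list medians near 0: heart muscle (-0.41 and -0.81 in the same settings), parietal endoderm and trophoblast (-0.032 with the split, -0.030 with the mitochondrial share), neural (-0.33 with the split), megakaryocytes (0.043 with the minimum, which left no neural gene), and, against +/+ replicate 1, erythropoietin and Kit (-0.11), hypoxia (0.14) and Hox (-0.054). Replicate numbers are shared between the groups in the titles. Deviations of the 5 same-numbered pairs correlated at -0.0796 to 0.0215 across genes and those of the 25 other pairs at -0.0810 to 0.137. No pairing by number was visible in these values, and a weaker one was not tested. With a replicate block 152 genes were lower and 49 higher, and Etv2 was called (1.03, adjusted p = 0.0396). That block also lost the calls of Ngfr, Plat, Col1a1, Tnc, Rcn3 and Kdr, at adjusted p = 0.0514 to 0.0580 by limma. Depth limited genes under about 1 CPM, such as Etv2 in +/+.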
